A study of Mus musculus with 6 samples.

Results

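The 42 mouse genes described here encode proteins of the blood-testis barrier and of the junctions that join cells of the testis. They were chosen by name from a given list of claudins, other tight junction proteins, connexins, adherens junction and ectoplasmic specialisation proteins and desmosome proteins. Names were matched without use of a measured value, but the list was drawn up with earlier results of these data known. Of the 34844 gene names on the array, 41 were members, with 63 probes between them. Esam2 had no probe of that name. Cldn1 and Pard6b were not well above background on any array, which left 39 members for testing among 28919 gene names.

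Whole testes of 3 AROM+ mice, transgenic animals that overexpress aromatase, were set against whole testes of 3 WT mice. Both groups were male, 5 months old and of C57BL/6 background, and total RNA of 1 testis was hybridised to each one-colour Agilent array. The AROM+ line is generally described as carrying human aromatase under a ubiquitin C promoter, which is active in many tissues, but the labels give neither the promoter nor the species of the transgene. The probe of the endogenous mouse aromatase gene Cyp19a1 read -3.31, -2.99 and -3.34 in AROM+ testes, against -2.77, -3.28 and -2.69 in WT testes, and the groups overlapped (limma log2 difference -0.30 ± 0.18, SE, adjusted p = 0.217). This probe does not check the genotype labels if the transgene's transcript lacks its target.

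The seminiferous epithelium is divided by a barrier that neighbouring Sertoli cells form near the base of the tubule. Tight junctions, a basal ectoplasmic specialisation (an actin-rich form of adherens junction), gap junctions and desmosomes lie together there, and meiotic and later germ cells develop behind them. An apical ectoplasmic specialisation anchors spermatids to Sertoli cells, with nectins on both sides. Most of these genes are also used by endothelial, epithelial, Leydig or germ cells, so a whole-testis level is a sum over cell types. In such bulk RNA, fewer cells of a type and less RNA per cell cannot be told apart.

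Levels are given as log2 of the background-corrected intensity relative to the 75th percentile of the same array, so a level of 0 lies at that percentile. Differences are AROM+ minus WT on this log2 scale, with the standard error of the fit and 3 arrays in each group. A probe's level is comparable between arrays and not with another probe. Between 76.6% and 80.6% of spots were well above background on each array and none was saturated. All 6 arrays lay on 1 slide with AROM+ and WT in different rows, so slide position and genotype cannot be told apart.

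Of the 39 members tested, 9 were higher and 4 lower in AROM+ than in WT testes at a limma adjusted p under 0.05. Over all gene names tested, 14.5% were higher and 31.4% lower, 45.9% in all. The median log2 difference of the members was 0.09, against -0.19 over all gene names tested, and 31 of 39 members lay above that overall median. The members called higher were Pard3, Gjb2, Gja1, Ctnna1, Cxadr, F11r, Cldn15, Cldn5 and Ctnnb1. Those called lower were Jup, Mllt4, Pvrl3 and Dsg2. The 3 values of AROM+ lay wholly above those of WT for 11 members and wholly below for 6, against 17.9% and 41.1% of all gene names tested. The count of higher calls fell to 4 without WT replicate 1 and to 4 without WT replicate 3, and the count of lower calls to 2 in each case. Over all gene names the same omissions left 9.69% higher and 18.9% lower without WT replicate 1, and 9.51% higher and 17.2% lower without WT replicate 3.

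**Figure D1:**
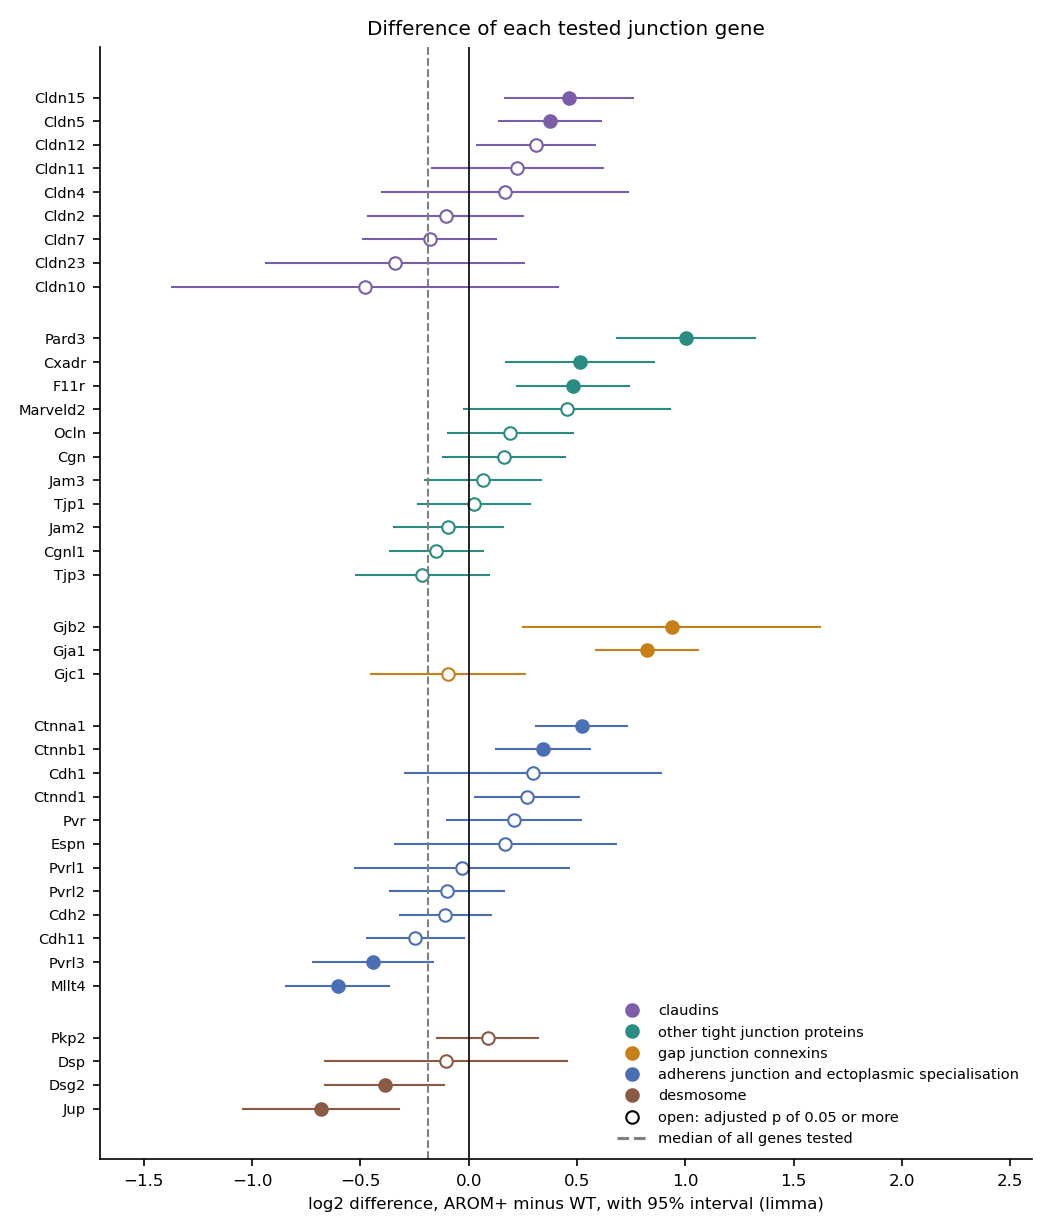
The plot gives the log2 difference (AROM+ minus WT, horizontal axis) of each of the 39 tested members by role, with the 95% interval of the limma fit as a line. Filled points passed an adjusted p of 0.05, and the dashed line marks the median of all gene names tested, at -0.19. Filled points of tight junction and connexin genes lie to the right of 0, and those of desmosome genes to the left.

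Claudins are the membrane proteins that seal or form pores in tight junction strands. Of 9 claudins tested, 2 were higher and none lower, against 14.5% higher and 31.4% lower over all gene names tested. The differences ran from -0.48 to 0.46. Cldn11, the claudin of Sertoli cell tight junctions whose loss in mice leaves males sterile, read 1.75, 1.83 and 2.35 in AROM+ testes, against 1.70, 1.73 and 1.82 in WT testes. The groups overlapped, and 1 AROM+ testis stood above the other arrays. Its difference of 0.22 ± 0.17 (SE, n = 3 each) did not pass the limma test (adjusted p = 0.295), and its 95% interval ran from -0.17 to 0.62.

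Cldn5, a claudin of endothelial tight junctions that Sertoli cells also carry, read 0.59, 0.47 and 0.39 in AROM+ testes, against 0.08, 0.22 and 0.03 in WT testes. The groups did not overlap. The difference was 0.38 ± 0.10 (1.30-fold, limma adjusted p = 0.0219), and the call ended when 1 of 4 arrays was left out, namely replicates 1 and 2 of AROM+ and 1 and 3 of WT (adjusted p of 0.053 to 0.078). In all, 6 of 17 alternatives ended it, spike-in and Sertoli marker scaling (described below) among them. Cldn15, a pore-forming claudin best known from the intestine, read -0.03, 0.01 and -0.13 in AROM+ testes, against -0.38, -0.40 and -0.75 in WT testes. Its groups also stood apart, with 1 WT testis below the other 2. The difference was 0.46 ± 0.12 (1.38-fold, limma adjusted p = 0.0234), and dropping AROM+ replicate 1 or 2, or WT replicate 3, ended the call (adjusted p of 0.058 to 0.066). With the same 2 scalings, 5 of 17 alternatives ended the Cldn15 call. The difference of Cldn12 was 0.31 with groups that did not overlap, but it did not pass the test (limma adjusted p = 0.0618). The brightest probes of Cldn4 and Cldn7 were not called, whereas the second probe of each was lower, at -0.45 ± 0.14 and -0.33 ± 0.09 (adjusted p over all probes of 0.0389 and 0.0253).

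Among the other tight junction proteins, 3 of 11 were higher and none was lower (all gene names tested: 14.5% and 31.4%), and the median difference was 0.16. Occludin, Ocln, a transmembrane protein of the strands, read -3.02, -2.75 and -2.69 in AROM+ testes, against -3.02, -3.12 and -2.89 in WT testes. The groups overlapped (difference 0.19 ± 0.12, limma adjusted p = 0.224). Tjp1 encodes ZO-1, the scaffold that links the strands to actin, and read 1.27, 1.46 and 1.50 in AROM+ testes, against 1.36, 1.52 and 1.28 in WT testes. Its values interleaved between the groups. The difference of Tjp1 was 0.02 ± 0.11 (limma adjusted p = 0.867), with a 95% interval from -0.23 to 0.28.

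F11r, the junctional adhesion molecule JAM-A, read 1.54, 1.33 and 1.63 in AROM+ testes, against 0.96, 1.10 and 1.01 in WT testes. Every AROM+ testis was above every WT testis. The difference was 0.48 ± 0.11 (1.39-fold, limma adjusted p = 0.0138), and 4 of 17 alternatives ended the call. These were leaving out WT replicate 1 (adjusted p = 0.052), normexp background correction (0.36, adjusted p = 0.059), spike-in scaling and Sertoli marker scaling. Cxadr encodes the coxsackievirus and adenovirus receptor, an adhesion protein of tight junctions that spermatids and Sertoli cells both carry. It read -3.64, -4.04 and -3.54 in AROM+ testes, against -4.22, -4.24 and -4.30 in WT testes. The groups did not overlap, with 1 AROM+ testis close to the WT values. The difference was 0.51 ± 0.14 (1.43-fold, limma adjusted p = 0.0261), and the call was lost when any array other than AROM+ replicate 2 was left out (adjusted p of 0.058 to 0.082). In all, 9 of 17 alternatives ended the Cxadr call. A second Cxadr probe, of another transcript, gave 0.25 ± 0.19 and did not pass (adjusted p over all probes tested 0.318). With normexp background correction the difference of the first probe was 0.22 (limma adjusted p = 0.172). Apart from Pard3, described next, the remaining members of this group were not called, and Marveld2, the tricellulin gene of junctions where 3 cells meet, was the furthest from 0 among them, at 0.45 ± 0.20 (limma adjusted p = 0.102). The probe of cingulin, Cgn, lists transcripts that also belong to the neighbouring locus BC021767, so its reading is shared between them.

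Pard3 encodes the PAR-3 polarity scaffold, which helps to place tight junctions in polarised cells. Its brightest probe read -0.75, -0.88 and -1.19 in AROM+ testes, against -1.88, -1.91 and -2.04 in WT testes. The groups were far apart relative to the spread within them. The difference was 1.00 ± 0.13 (2.00-fold, limma adjusted p = 0.00428), larger than that of any other member tested. The 3 other Pard3 probes did not all move with it. The first 30 of the 60 bases of each probe are shown because the direction for this gene turns on which of them is read.
A_52_P51548: caaggccgcattactaagttattctgccgt
A_55_P1985025: agtacttgcctagcatttacagcgccctgc
A_55_P1985012: tattctctggagaggcaaatgaatggagac
A_55_P1985015: ctgagctcaaagaaggatggcagcattttg
In the mm9 coordinates of the files, all 4 lie on the plus strand of chromosome 8, A_52_P51548 at 130135585 to 130135644, A_55_P1985025 at 129925900 to 129925959, A_55_P1985012 at 129950493 to 129950552 and A_55_P1985015 at 130134671 to 130134730. A gene annotation of that build was not used here, so exons were not assigned.

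A_55_P1985025 was higher in AROM+ testes like the brightest probe, by 1.14 ± 0.20 (adjusted p over all probes tested 0.00735). A_55_P1985012 was lower, with a log2 difference of -0.59 ± 0.17 (adjusted p = 0.0293, limma over all probes). A_55_P1985015, which starts 914 bases from the brightest probe and lists the same RefSeq transcript, gave -0.47 ± 0.18 and did not pass (limma adjusted p = 0.0777). The probes thus fell into a pair that was higher and a pair with negative differences. Their ratio was tested within arrays, where scaling between arrays cancels, over all 13714 pairs of a brightest and another probe of the same gene. This test was added after the probe values had been seen.

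The brightest probe minus A_55_P1985012 read 2.76, 2.79 and 2.90 in AROM+ testes, against 1.15, 1.40 and 1.12 in WT testes on the log2 scale. The gap between the groups exceeded the spread within either (difference 1.59 ± 0.11, limma adjusted p = 0.00269). The brightest probe minus A_55_P1985015 read 1.77, 1.06 and 1.37 in AROM+ testes, against -0.06, 0.13 and -0.27 in WT testes (difference 1.47 ± 0.20, limma adjusted p = 0.00783). Both ratios passed under all 10 alternatives run for them, at adjusted p of 0.00049 to 0.0351. Over all gene names, 6.04% of probe pairs had a higher and 8.04% a lower ratio in AROM+ testes at the same threshold. With the mean of the 4 probes in place of the brightest, Pard3 as a gene gave 0.27 and was not called (limma adjusted p = 0.137).

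**Figure D2:**
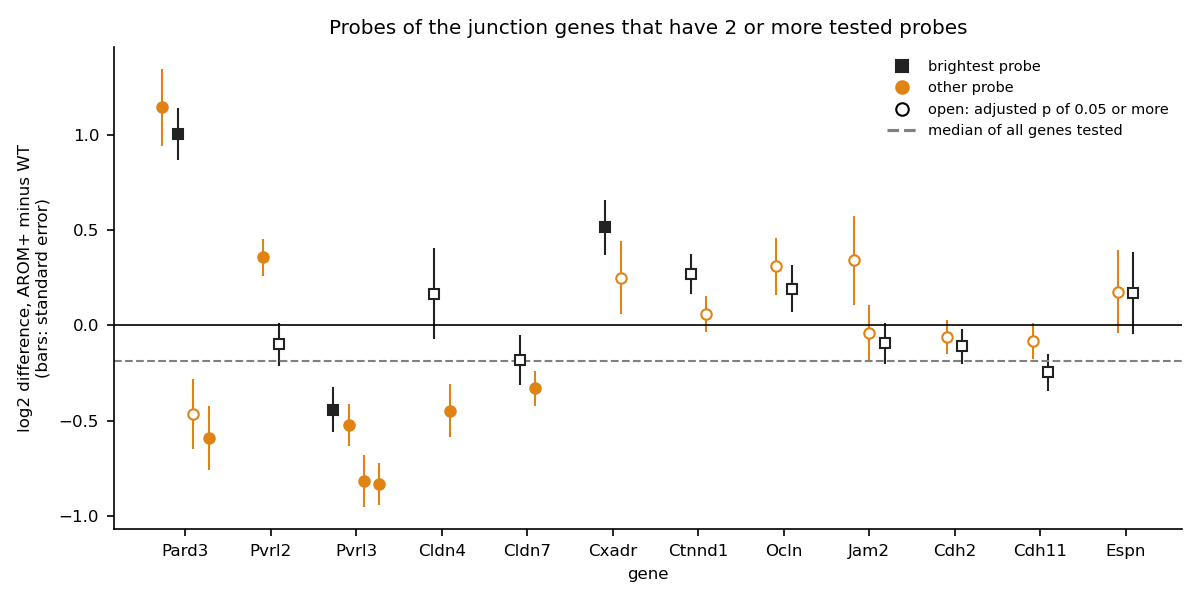
The plot gives the log2 difference (AROM+ minus WT, vertical axis, bars are standard errors) of every tested probe of the 12 members with 2 or more tested probes. Squares mark the brightest probe of a gene and circles the others, and filled symbols passed an adjusted p of 0.05 over all probes. The Pard3 probes split between 1.14 and -0.59, whereas all 4 Pvrl3 probes lie below 0.

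Connexins form gap junction channels, and connexin 43, the product of Gja1, is the main one between Sertoli cells and between Sertoli and germ cells. Of 3 connexins tested, Gja1 and Gjb2 were higher, where 14.5% of all gene names tested were. Gjc1, another channel subunit, was not called (difference -0.10 ± 0.15, limma adjusted p = 0.618). The stretch of 250 bases before the start of Gja1 is shown because this gene kept its call under every alternative run. It is from RefSeq (GRCm38.p6, chr10:56377050-56377299, plus strand), and the capitals mark the single match to the AP-1 site TGANTCA.
Gja1: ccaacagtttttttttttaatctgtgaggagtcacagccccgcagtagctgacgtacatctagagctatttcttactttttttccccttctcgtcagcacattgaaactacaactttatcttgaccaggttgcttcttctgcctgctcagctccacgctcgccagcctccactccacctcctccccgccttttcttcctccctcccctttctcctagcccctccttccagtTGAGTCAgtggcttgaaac
Gja1 read 0.19, 0.17 and 0.10 in AROM+ testes, against -0.72, -0.52 and -0.76 in WT testes. The AROM+ arrays lay within a narrow band above all WT arrays. The difference was 0.82 ± 0.10 (1.77-fold, limma adjusted p = 0.00365), and over the 17 alternatives it ran from 0.45 to 0.90. Gjb2, which encodes connexin 26 and is better known from epithelia, read -4.74, -4.18 and -3.51 in AROM+ testes, against -5.17, -4.97 and -5.10 in WT testes. The groups did not overlap, but the AROM+ testes were spread more widely than the WT testes. The difference was 0.94 ± 0.29 (1.91-fold, limma adjusted p = 0.036), and 5 of 17 alternatives ended the call. Among them were leaving out any 1 of the 3 WT arrays or AROM+ replicate 2 (adjusted p of 0.067 to 0.095).

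Adherens junctions join cells through cadherins or nectins, with catenins and afadin as the links to actin. Of 12 such members tested, 2 were higher and 2 lower (all gene names tested: 14.5% and 31.4%), and the median difference was 0.07. Cdh2, N-cadherin, the main classical cadherin of the seminiferous epithelium, read 2.24, 2.15 and 2.30 in AROM+ testes, against 2.33, 2.40 and 2.29 in WT testes. The groups overlapped only at the edge. The difference was -0.11 ± 0.09 (limma adjusted p = 0.337), and the second probe gave -0.06.

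Of the catenins, which bind the inner ends of cadherins, Ctnnb1 and Ctnna1 were higher and Ctnnd1 was not called. Ctnnb1, beta-catenin, which also acts in Wnt signalling, read 1.90, 1.90 and 2.09 in AROM+ testes, against 1.62, 1.62 and 1.62 in WT testes. The WT arrays were almost identical, and all AROM+ arrays were above them. The difference was 0.34 ± 0.09 (1.27-fold, limma adjusted p = 0.0226), and dropping AROM+ replicate 3, or WT replicate 1 or 3, ended the call (adjusted p of 0.051 to 0.072). In all, 5 of 17 alternatives ended it, spike-in scaling and the replicate block among them, and 1 more, Sertoli marker scaling, turned the direction. Ctnna1, alpha-E-catenin, which ties beta-catenin to actin, read 2.01, 2.08 and 2.03 in AROM+ testes, against 1.42, 1.58 and 1.56 in WT testes. The groups were clearly separated. The difference was 0.52 ± 0.09 (1.43-fold, limma adjusted p = 0.00651). Ctnnd1, p120-catenin, gave 0.27 ± 0.10 on its brightest probe, with groups that did not overlap, and did not pass the test (limma adjusted p = 0.0657). On another Ctnnd1 probe the groups overlapped, at 0.06 ± 0.09 (limma adjusted p over all probes 0.614).

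Nectins are immunoglobulin-like adhesion proteins bound to actin through afadin. The files name the nectin genes Pvrl1, Pvrl2 and Pvrl3 and the afadin gene Mllt4, which are Nectin1, Nectin2, Nectin3 and Afdn in the RefSeq table used here. Pvrl3, the nectin of spermatids at the apical ectoplasmic specialisation, read 2.31, 2.64 and 2.46 in AROM+ testes, against 2.87, 2.84 and 3.03 in WT testes. All AROM+ arrays were below all WT arrays. The difference was -0.44 ± 0.12 (1.36-fold lower, limma adjusted p = 0.022), and each of the 3 other Pvrl3 probes was also lower, at -0.52, -0.82 and -0.83 (adjusted p over all probes of 0.00422 to 0.0118). The call of the brightest probe was lost with quantile normalization (-0.23, limma adjusted p = 0.155) and on dropping replicate 1 or 3 of either group (adjusted p of 0.050 to 0.077).

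Mllt4, the afadin gene, had 1 probe. The 250 bases before its start are shown beside those of Gja1 for the same reason, from RefSeq (GRCm38.p6, chr17:13760291-13760540, plus strand), with capitals for matches to the GC box GGGCGG.
Mllt4: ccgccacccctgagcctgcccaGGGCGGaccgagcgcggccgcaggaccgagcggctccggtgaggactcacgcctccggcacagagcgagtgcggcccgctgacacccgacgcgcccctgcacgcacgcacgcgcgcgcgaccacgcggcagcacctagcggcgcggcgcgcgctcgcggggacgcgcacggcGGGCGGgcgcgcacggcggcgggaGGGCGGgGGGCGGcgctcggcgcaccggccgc
Mllt4 read -3.79, -3.68 and -3.56 in AROM+ testes, against -3.05, -3.17 and -3.01 in WT testes. The groups were well separated. The difference was -0.60 ± 0.10 (1.52-fold lower, limma adjusted p = 0.00624), and it ran from -0.97 to -0.52 over the 17 alternatives, all of which kept the call.

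Pvrl2, the nectin on the Sertoli cell side, was not called by its brightest probe, A_52_P188678 (-0.10 ± 0.11, limma adjusted p = 0.479). A second probe, A_55_P2167025, which lists another RefSeq transcript, was higher by 0.36 ± 0.10 (adjusted p over all probes 0.0242). The ratio of the first to the second probe read 0.00, 0.25 and 0.02 in AROM+ testes, against 0.54, 0.73 and 0.37 in WT testes on the log2 scale. The groups did not overlap, but the difference of -0.46 ± 0.13 did not pass (limma adjusted p = 0.064). The brightest probe of the cadherin Cdh11 was lower on every AROM+ array than on any WT array. It gave -0.25 ± 0.09 and was not called (limma adjusted p = 0.0688). The groups overlapped on a second Cdh11 probe, at -0.08 ± 0.10 (limma adjusted p over all probes 0.508). Espn, the actin-bundling protein of the ectoplasmic specialisation, gave 0.17 ± 0.21 (limma adjusted p = 0.54). Pvr, Pvrl1 and Cdh1 were not called either.

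Desmosomes tie junctions to intermediate filaments through desmosomal cadherins, plakoglobin, plakophilins and desmoplakin. Of 4 members tested, 2 were lower and none was higher, a small count where 31.4% of all gene names tested were lower. Jup, plakoglobin, which serves in desmosomes and in adherens junctions, also kept its call under every alternative. The 250 bases before its start are given from RefSeq (GRCm38.p6, chr11:100397791-100398040, minus strand), with GC boxes on either strand in capitals.
Jup: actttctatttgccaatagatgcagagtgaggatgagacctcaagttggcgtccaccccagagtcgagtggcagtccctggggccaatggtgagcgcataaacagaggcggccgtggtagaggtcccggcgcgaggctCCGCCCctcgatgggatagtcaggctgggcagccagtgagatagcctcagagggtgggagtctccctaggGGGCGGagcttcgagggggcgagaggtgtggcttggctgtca
Jup read -3.16, -2.99 and -3.39 in AROM+ testes, against -2.28, -2.50 and -2.71 in WT testes. The highest AROM+ array was below the lowest WT array. The difference was -0.68 ± 0.15 (1.60-fold lower, limma adjusted p = 0.0129), and it ran from -1.05 to -0.57 over the 17 alternatives. Dsg2, the desmoglein of non-stratified epithelia, read -4.28, -4.55 and -4.28 in AROM+ testes, against -4.05, -4.05 and -3.85 in WT testes. The groups did not overlap, with a narrow gap. The difference was -0.39 ± 0.12 (1.31-fold lower, limma adjusted p = 0.0329), and 2 further Dsg2 probes were not well above background. Leaving out any 1 WT array or AROM+ replicate 2 ended the Dsg2 call (adjusted p of 0.052 to 0.107). So did averaging its probes (-0.34, limma adjusted p = 0.365), spike-in scaling, normexp and a variance trend (limma adjusted p of 0.053 to 0.068). Dsp, desmoplakin, gave -0.10 and Pkp2, plakophilin 2, gave 0.09, and neither was called.

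**Figure D3:**
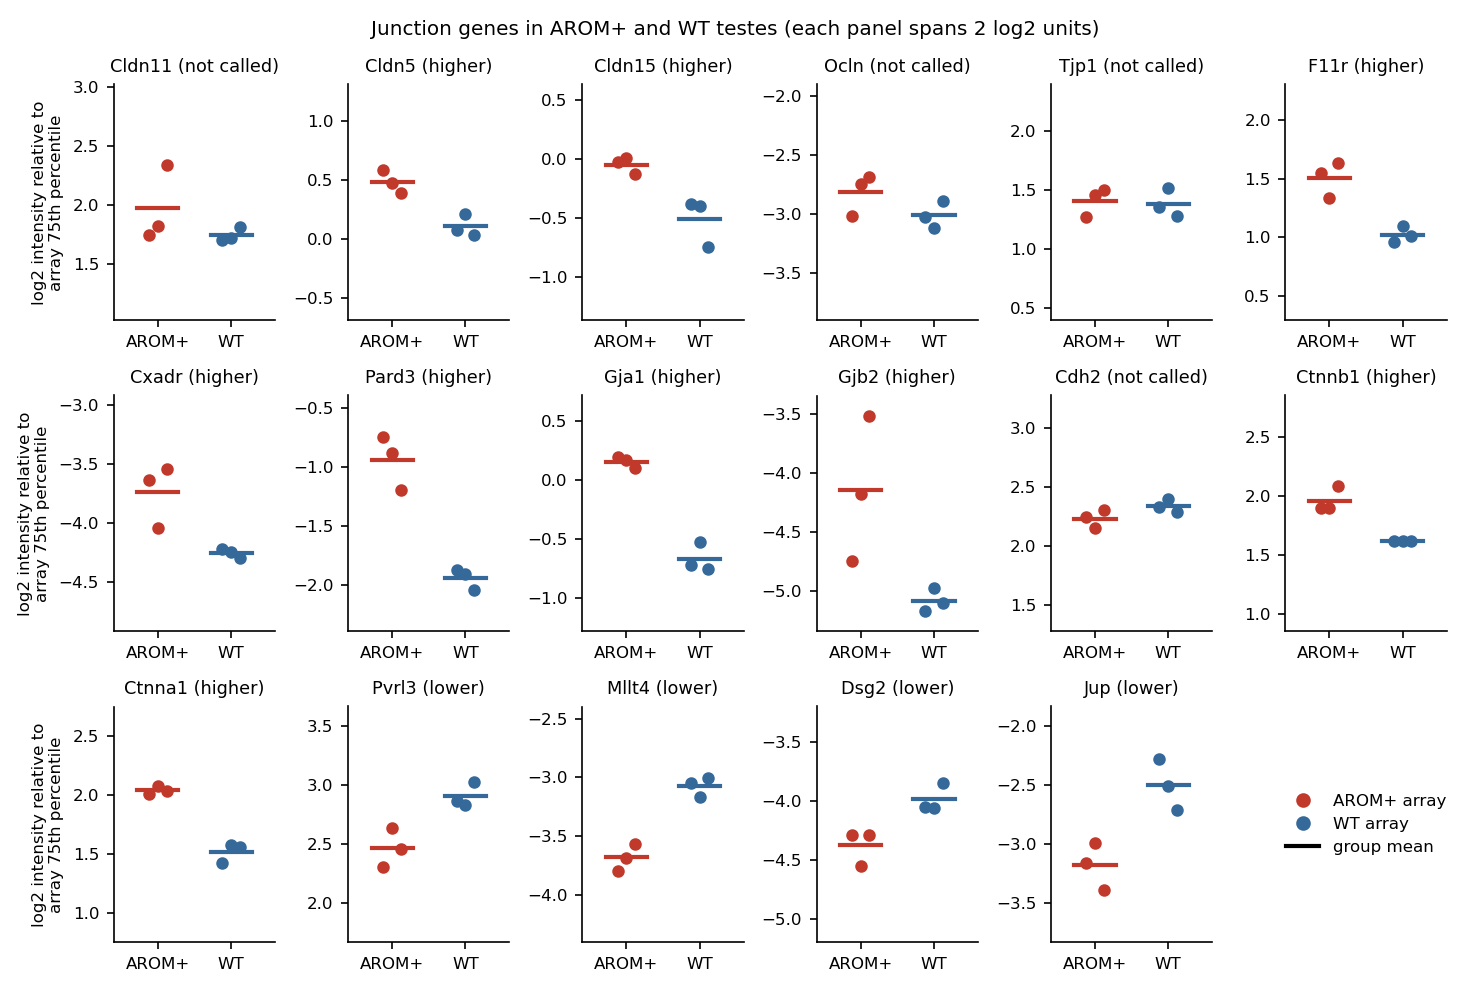
Each panel plots the log2 level of 1 gene relative to the 75th percentile of its array (vertical axis) for the 3 AROM+ arrays on the left and the 3 WT arrays on the right, with a line at each group's mean. The panels hold the 13 called members and Cldn11, Ocln, Tjp1 and Cdh2. The groups are separate in every called panel and overlap in the 4 others.

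Promoters were available for 28 of the 41 members, as 40 start sites of alternative transcripts among 32851 in the RefSeq table. Each window was searched on both strands for motifs picked with the results known, and a match is a description of letters only. The oestrogen response element, GGTCA and TGACC with 3 bases between, occurred in none of the 40 windows and in 0.064% of all windows, and the androgen response element, AGAACA and TGTTCT with 3 bases between, in none of the 40 and in 0.009% of all. The AP-1 site was present in 4 of 40 windows (10.0%, against 6.75% of all), those of Gja1, F11r, Cldn15 and Cldn4. The GC box was present in 28 of 40 (70.0%, against 32.7% of all), and TATAAA in 6 of 40 (15.0%, against 12.4% of all). The Jup and Mllt4 windows hold 2 and 4 GC boxes and no AP-1 match, and the Gja1 window holds no GC box.

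Other junction genes were counted in the same fit, as lists of 124 names of which 120 were on the array and 104 were tested. Of these, 24 were higher and 33 lower, which is 23.1% and 31.7%, with a median difference of -0.15. Over all gene names tested, 14.5% were higher and 31.4% lower, with a median of -0.19, so the share of lower calls was close to that of all genes. Among 10 other claudins 4 were lower and none higher. The largest of these differences were those of Cldn6 (-0.86 ± 0.26, limma adjusted p = 0.0359), Cldn13 (-0.62 ± 0.17) and Cldnd2 (-0.55 ± 0.15). Of 17 alternatives, 7 ended the call of Cldn6, 5 that of Cldn13 and 6 that of Cldnd2, at limma adjusted p of up to 0.098. Among 14 other connexins and pannexins 2 were higher and 7 lower. Panx1, a channel protein related to connexins only in form, was higher by 1.14 ± 0.11 (limma adjusted p = 0.00258), and Panx2 was lower, at -0.86 ± 0.25, a call lost in 4 of 17 alternatives. Gja10 was not well above background on any AROM+ array and was on all WT arrays. Its difference was -0.95 ± 0.19 (1.94-fold lower, limma adjusted p = 0.00934), with an interval of the fit from -1.40 to -0.51. A bound was sought by taking, on each AROM+ array, the higher of the probe's own signal and the lowest signal well above background. It came to the same 1.94-fold, so that value is an estimate and not a lower limit. The estimate depends on the background correction, since the Gja10 difference was -0.40 with normexp, where it kept its call.

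Among 29 other tight junction and polarity genes 9 were higher and 11 lower (31% and 37.9%), against 14.5% and 31.4% of all gene names tested. Esam, an adhesion molecule of endothelial tight junctions, read -0.20, -0.74 and -0.64 in AROM+ testes, against -1.68, -1.65 and -1.84 in WT testes (difference 1.19 ± 0.16, limma adjusted p = 0.00417). Amotl2, an angiomotin family member, was higher by 1.11 ± 0.21, and Lin7c, a polarity scaffold, was lower, at -0.94 ± 0.09 (limma adjusted p of 0.00829 and 0.00258). Among 38 other adherens junction and ectoplasmic specialisation genes 12 were higher and 7 lower (31.6% and 18.4%). Cadm3, an immunoglobulin-like adhesion protein, read -0.18, -0.75 and -3.21 in AROM+ testes, against -6.38, -5.81 and -7.16 in WT testes. The AROM+ arrays varied widely but all lay far above the WT arrays, 2 of which were well above background for this probe (difference 5.07 ± 0.78, limma adjusted p = 0.00538). Its relative Cadm2 was lower, at -1.13 ± 0.14, as was the testis-enriched alpha-catenin gene Ctnna3 at -0.86 ± 0.16 (limma adjusted p of 0.00374 and 0.0084). Among 13 other desmosome and plakin genes 1 was higher and 4 were lower (7.69% and 30.8%), a lower share close to that of all gene names tested. The higher gene was the desmocollin Dsc2 (0.82 ± 0.15, limma adjusted p = 0.0074). Among the lower genes were Dsg1a at -0.71 ± 0.22 (call lost in 6 of 17 alternatives) and Dsg1b at -0.60 ± 0.14. Dsg1a and Dsg1b are near-identical copies whose probes may share signal.

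Markers of cell types that carry these junctions were read in the same fit, in which 14.5% of all gene names tested were higher and 31.4% lower. Of 15 Sertoli cell markers 5 were higher and none lower, with a median difference of 0.18, and their mean level was 1.42, 1.54 and 1.76 in AROM+ testes, against 1.13, 1.38 and 1.10 in WT testes. Of 11 endothelial markers 9 were higher and 1 lower, with a median of 1.06 and mean levels of -1.13, -1.72 and -1.67 in AROM+ testes, against -2.68, -2.42 and -2.72 in WT testes. Cldn5, F11r, Gja1 and Esam, all called higher, are genes that endothelial cells use as well. So are Gja5, a connexin gene that was lower (-0.37 ± 0.10, limma adjusted p = 0.023), and Tjp1, Jam2 and Jam3, which were not called. The part of either cell type in the junction gene differences was not tested.

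Of 13 tested epithelial markers of the rete testis, efferent duct and epididymis 2 were higher and 3 lower (all gene names tested: 14.5% and 31.4%). Their median was -0.13, with mean levels of -2.85 to -2.70 in AROM+ testes, against -2.71 to -2.62 in WT testes. Elf3 was not well above background on any array, and Pax8 was on 2 AROM+ arrays and no WT array. Of 10 macrophage markers 7 were higher and 2 lower (median 1.60, mean levels of 1.95 to 2.41 in AROM+ testes, against 0.72 to 1.17 in WT testes). All 7 fibroblast markers were higher (median 1.41, mean levels of 0.91 to 1.52 in AROM+ testes, against -0.53 to -0.06 in WT testes). Of 6 Leydig cell markers 3 were higher and 3 had negative differences that were not called (range -1.08 to 3.72, median 0.45). Their mean levels were 0.59 to 1.44 in AROM+ testes, against -0.49 to 1.15 in WT testes. Of 8 peritubular markers 2 were higher and 1 lower (median 0.31, mean levels of -0.03 to 0.22 in AROM+ testes, against -0.32 to -0.05 in WT testes).

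Of the germ cell markers, those called lower were mostly of spermatocytes and spermatids. Their counts stand against 14.5% higher and 31.4% lower over all gene names tested. Of 10 spermatid markers 7 were lower and none higher, with a median of -0.45 and mean levels of 3.53 to 3.59 in AROM+ testes, against 3.95 to 4.05 in WT testes. Of 9 spermatocyte markers 5 were lower and none higher, with a median of -0.30 and mean levels of 1.73 to 1.84 in AROM+ testes, against 2.13 to 2.16 in WT testes. Of 9 spermatogonial markers 2 were higher and 1 lower, with a median of -0.03 and mean levels of -0.74 to -0.37 in AROM+ testes, against -0.75 to -0.58 in WT testes. These values stand beside the lower spermatid nectin Pvrl3 and the higher Cxadr, which spermatids also carry. The part of germ cells in the difference of either gene was not tested.

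**Figure D4:**
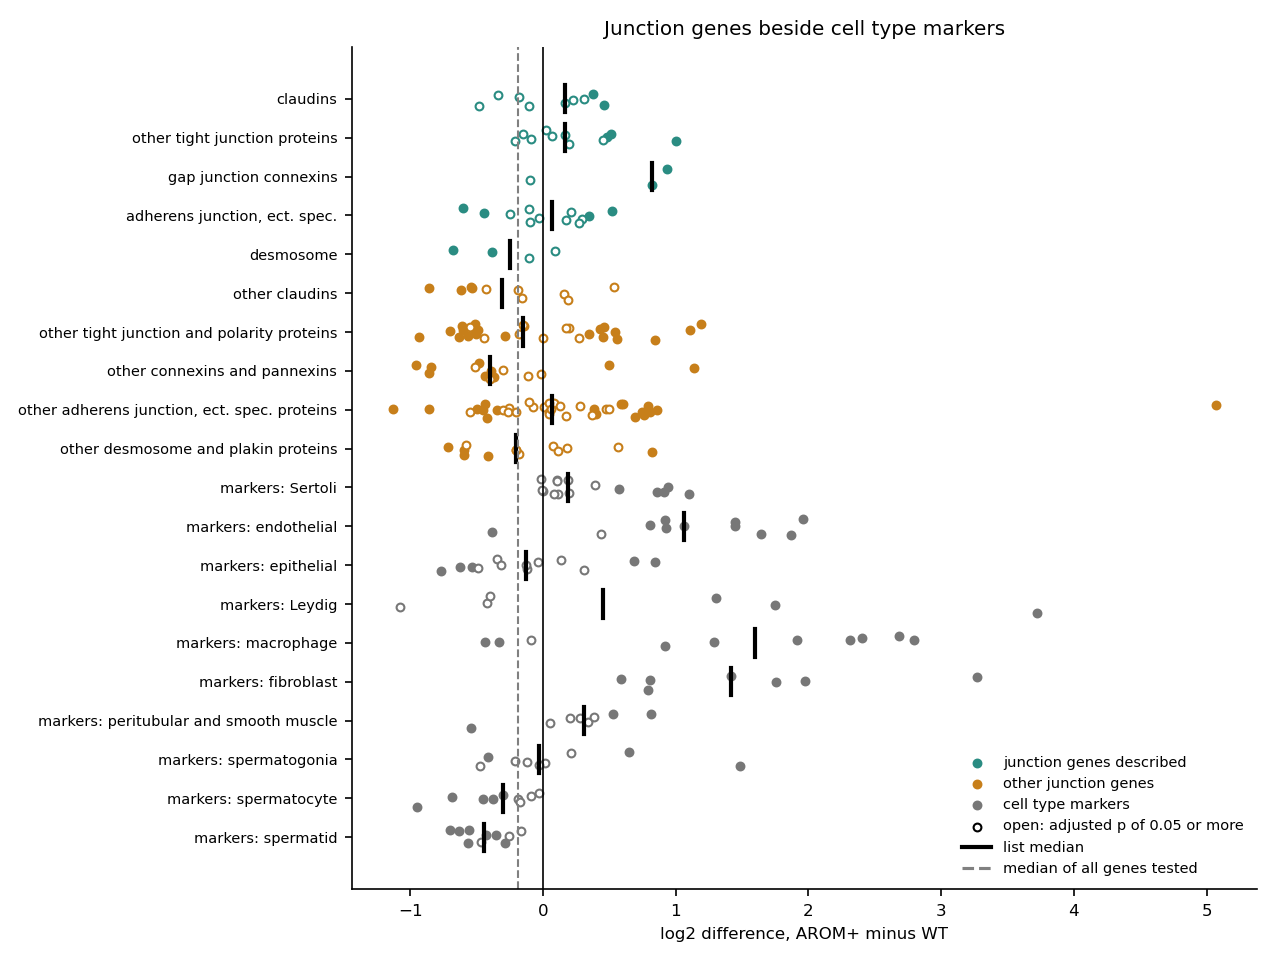
The plot gives the log2 difference (AROM+ minus WT, horizontal axis) of each tested gene in the junction groups described, in the lists of other junction genes and in the marker lists, with a bar at each list's median. Filled points passed an adjusted p of 0.05, and the dashed line is the median of all gene names tested. The fibroblast, macrophage and endothelial medians lie above 1, and the spermatocyte and spermatid medians lie below the dashed line.

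When every array was scaled to the mean of the 15 Sertoli markers in place of its 75th percentile, the median of all gene names moved to -0.56 and the counts of members were 3 higher and 12 lower of 39. Over all gene names 6.23% were then higher and 59.6% lower, and the members' median was -0.28. Pard3 (0.63), Gjb2 (0.57) and Gja1 (0.45) stayed higher, at limma adjusted p of 0.027 to 0.046. Jup, Mllt4, Pvrl3 and Dsg2 stayed lower, and Cldn7, Cldn23, Jam2, Tjp3, Cgnl1, Cdh2, Cdh11 and Pvrl2 joined them, with differences of -0.71 to -0.46. Cldn5 (0.01), Cldn15 (0.09), F11r (0.11), Cxadr (0.14), Ctnna1 (0.15) and Ctnnb1 (-0.025) were then not called. Of the uncalled members, Cldn11 (-0.14), Ocln (-0.18) and Tjp1 (-0.34) had negative values under this scaling. With spike-in scaling 4 members were higher (Pard3, Gjb2, Gja1 and Ctnna1) and 3 lower (Jup, Mllt4 and Pvrl3), against 9.55% higher and 22.4% lower over all gene names. Some of the Sertoli markers were themselves higher in AROM+ testes, so scaling to them takes their difference as 0 on average.

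**Figure D5:**
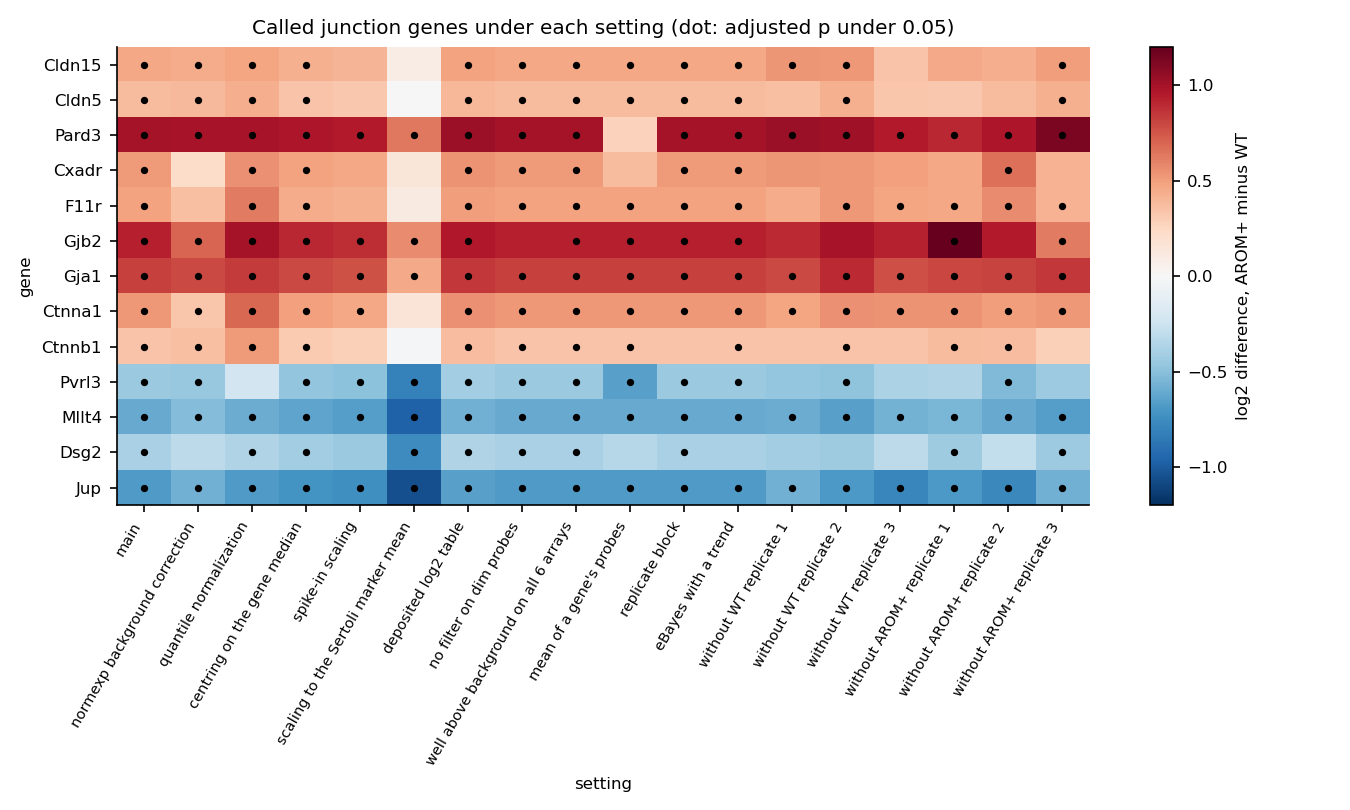
Rows are the 13 called members and columns the main setting and 17 alternatives, with colour for the log2 difference (AROM+ minus WT) and a dot where the adjusted p was under 0.05. Gja1, Mllt4 and Jup have a dot in every column, and Pard3 and Ctnna1 in all but 1 alternative.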

How the data were processed

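Whole testes of 3 AROM+ and 3 WT mice were measured on one-colour (Cy3) arrays. Samples were grouped by the genotype in their titles, which also give the tissue, the age and a replicate number. The p-values measure the spread between arrays of a group, each taken as 1 testis. The authors deposited each spot's intensity as Agilent Feature Extraction wrote it, background-corrected in its processed signal. The program version is 10.7.3.1 in the file headers, whereas the submitters' processing notes name 10.10. Probe coordinates are mm9 per the file headers. A deposited table of log2 values differed from log2 of that signal mainly by an offset of each array (slope 1.00, column medians of -3.05, -3.09 and -3.02 in AROM+ and -3.12, -3.11 and -3.09 in WT). Within an array the offset varied between spots with an SD of 0.045 to 0.073. Its scale is known from that comparison and genes were not centred.

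Control spots (3671 of 62976 per array) and outlier spots (123 to 192 per array) were left out. Spots of a probe were averaged, giving 55681 probes, as log2 of the processed signal minus the array's 75th percentile. Genes follow the files' gene names, unnamed transcripts included, and were read by the probe of highest mean signal if all 3 arrays of a group called that probe well above background. Groups were compared with limma 3.58.1 (lmFit and eBayes, R 4.3.3) with Benjamini-Hochberg adjustment over the 28919 gene names tested and a threshold of 0.05. Probes and probe ratios were fitted the same way over all probes or pairs, and the ratio test was added after seeing the probe values. The fits were tested on simulated data. The number of arrays limits the precision.

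The members and gene lists were chosen with earlier results of these data known. Values per array are given for each called member and for Cldn11, Cldn5, Tjp1, Ocln, Cdh2, Gja1 and Cxadr, and other members by range, count or a single value. Of each list of other junction genes, up to 3 called genes with the largest difference are named, and of marker lists counts, medians and mean levels. Gja5 was named besides, after its value was seen. Members outside this rule that are given a value (Cldn4, Cldn7, Cldn12, Marveld2, Gjc1, Ctnnd1, Pvrl2, Cdh11, Espn, Dsp and Pkp2) were picked after their values were seen. Alternatives were normexp (offset 50), quantile, gene-median, spike-in and Sertoli marker scaling, the deposited table, filters, probe averaging, a replicate block, a variance trend and leaving out each array. Promoters are from RefSeq (GRCm38.p6), and sequences on chromosome 18 are not printed.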

Additional observations from a re-analysis of the deposited data

How the results depend on the processing

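Of the 17 alternatives, the deposited log2 table, gene-median centring, quantile normalization, normexp correction, both filters on dim probes, probe averaging, the replicate block and the variance trend kept the counts of members within 1.5 times of 9 higher and 4 lower (7 to 10 higher, 3 or 4 lower). Spike-in scaling gave 4 higher and 3 lower, and Sertoli marker scaling gave 3 higher and 12 lower. Leaving out 1 array gave 4 to 8 higher and 2 to 4 lower, with the low counts without WT replicate 1 or WT replicate 3. The other junction genes called, 57 in all, were 30 to 51 with 1 array left out, lowest without WT replicate 3 (30) and WT replicate 1 (35), and 43 to 61 under the other alternatives. Over all gene names, 9.51% were higher and 17.2% lower without WT replicate 3, and 9.69% and 18.9% without WT replicate 1. The main setting gave 14.5% and 31.4%. Under Sertoli marker scaling the other junction genes called split into 8 higher and 53 lower, against 24 and 33. Of all gene names, 6.23% were higher and 59.6% lower under that scaling, so the shift to lower calls was shared by the whole array. Replicate numbers did not pair the samples: same-numbered AROM+ and WT arrays had correlations of their deviations of 0.049, -0.167 and 0.050, and no AROM+ array correlated best with its own number. The replicate block gave 8 members higher and 4 lower and 43 other junction genes, ending the call of Ctnnb1 (adjusted p = 0.054) and of no other called member. Among the called members 1 direction turned, that of Ctnnb1 with Sertoli marker scaling (-0.025, limma adjusted p = 0.888); by construction this scaling sets the Sertoli marker mean equal between arrays. Several uncalled members changed sign under at least 1 alternative, most under this scaling, where the median of the members was -0.28. Over all gene names, 4200 were higher and 9069 lower, against 4699 and 6185 with quantile normalization and 1803 and 17248 with Sertoli marker scaling. Of the probe ratios, the Pvrl3 pair called (0.39, adjusted p = 0.0474) lost its call in 9 of 10 alternatives. The cause of the remaining changes was not tested.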
